A study of Mus musculus with 21 samples.

Results

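Cardiac fibroblasts grown in a gel together with endothelial cells were compared with cardiac fibroblasts grown in the same kind of gel alone. The comparison uses 6 of the 21 RNA-seq libraries of the series, taken by their labels: 3 titled co-culture and 3 titled 3D-culture, called alone below. The other libraries come from heart tissue and were not used. All genes of the 6 libraries were examined, 53801 identifiers in all, and 12293 of them had enough counts to be tested.

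All 6 libraries are of mouse cardiac fibroblasts from heart ventricles, first grown in low-glucose DMEM with 10% serum and 10 µM of a ROCK inhibitor, a compound that blocks the kinase driving actin contraction. Both groups then spent 7 days in 5% GelMA, a hydrogel made from modified gelatin. In the co-culture group the gel also held endothelial cells isolated from mouse heart and lung, which had been expanded in EGM-2 MV medium on 1% fibronectin. The series text gives a ratio of 2:1 and does not say which cells were the larger part. The sources used here do not give the strain, age, sex or genotype of the mice, or the medium used in the gel. The groups differ in a second way: co-cultured fibroblasts were sorted by flow cytometry as cells positive for Pdgfra and negative for CD45 and CD31, while fibroblasts grown alone went into RNA extraction straight from the dissolved gel. Effects of the endothelial cells and of the sort therefore cannot be told apart. As the medium in the gel is not given, it is also not known whether it was the same in both groups. The series text calls the libraries biological replicates without saying whether they come from separate mice, and the tests see only the variation among these libraries, part of which may be technical.

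Fibroblasts make and turn over the extracellular matrix of the heart. A resting fibroblast secretes small proteoglycans and carries receptors such as Pdgfra. After injury many divide, and some become myofibroblasts, which build contractile actin fibres and secrete periostin, tenascin C and fibronectin. Endothelial cells line vessels and exchange growth factors, cytokines and Notch ligands with neighbouring mesenchymal cells. Interferons, which many cell types secrete after viral or nucleic acid sensing, switch on antiviral genes and antigen presentation through STAT and IRF factors.

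Sequencing depth differed between the groups. Co-culture libraries held 4735337 to 6346015 gene counts and 15880 to 16587 detected genes, and libraries from fibroblasts alone 12871240 to 15650221 counts and 19632 to 21807 detected genes. Genes of low level are thus less precise on the co-culture side. Mitochondrially encoded genes took 2.18% ± 0.18 (SD, n = 3) of counts in co-culture and 1.32% ± 0.20 alone (exact two-sided permutation p = 0.1, the smallest that 3 against 3 can give). The gene mt-Tq, a mitochondrial transfer RNA, took 0.867% to 1.00% of counts in co-culture and 0.118% to 0.204% alone. Without it the mitochondrial shares overlapped, at 1.26% ± 0.11 (SD, n = 3) in co-culture and 1.18% ± 0.25 alone (exact two-sided permutation p = 0.8). The 3D-culture replicate 2 stood apart from the other 2 libraries of its group: 391 of 7059 genes of at least 10 counts in 1000000 (CPM, scaled by library) were at least 2-fold above both others, against 0 and 9 genes in those. Actin beta (Actb) alone took 18.5% of its counts, against 4.55% and 5.81% in the other 2.

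Between the groups, 7351 of 12293 tested genes (59.8%) passed the test, which was edgeR's quasi-likelihood F test on counts with an adjusted p under 0.05. Of these, 3729 were higher in co-culture (30.3% of genes tested) and 3622 lower (29.5%). At a change of at least 2-fold, 2274 genes were higher and 1941 lower, and at least 8-fold, 325 and 46. Large falls of low genes are harder to resolve than large rises. In co-culture 3 counts amount to 0.524 to 0.727 CPM, and alone to 0.161 to 0.239 CPM. The part of depth in the 8-fold numbers was not tested. The first principal component of the 1000 most variable genes held 90.8% of their variance and separated the groups. For 67% of tested genes the 3 libraries of 1 group all lay above the 3 of the other. The median log2 fold change of all tested genes was -0.06, and it was -0.41 where libraries were scaled by total counts, which gave 2506 higher and 5162 lower genes, or 32.7% of calls higher against 50.7% in the main test. Without 3D-culture replicate 2, 3911 genes were higher and 3897 lower.

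Gene length moved with the direction of change. Genes higher in co-culture had a median exonic length of 3045 bases and genes lower 5428, against 4264 over all genes tested. With the trends of the fold change over length and GC content removed, an alternative chosen after the data were seen, 6054 genes were called, and 4562 of the 7351 calls held with the same direction, while 758 of those 7351 genes changed sign. Of called genes named below, Ccn5, Cd14, Cd34, Col4a2, Col5a2, Ecscr, Egfl7, Ftl1, Gclm, Plvap, Ptprc, Rfng and Tead1 lost their call, and Tbx20 and Vcan changed sign. Counts of tested members higher and lower in a list are to be read against those 30.3% and 29.5%. List medians of the log2 fold change, where given, are to be read against -0.06. Some genes are named without the count of their list. A number after "log2" is a gene's log2 fold change, positive where co-culture was higher.

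**Figure D1:**
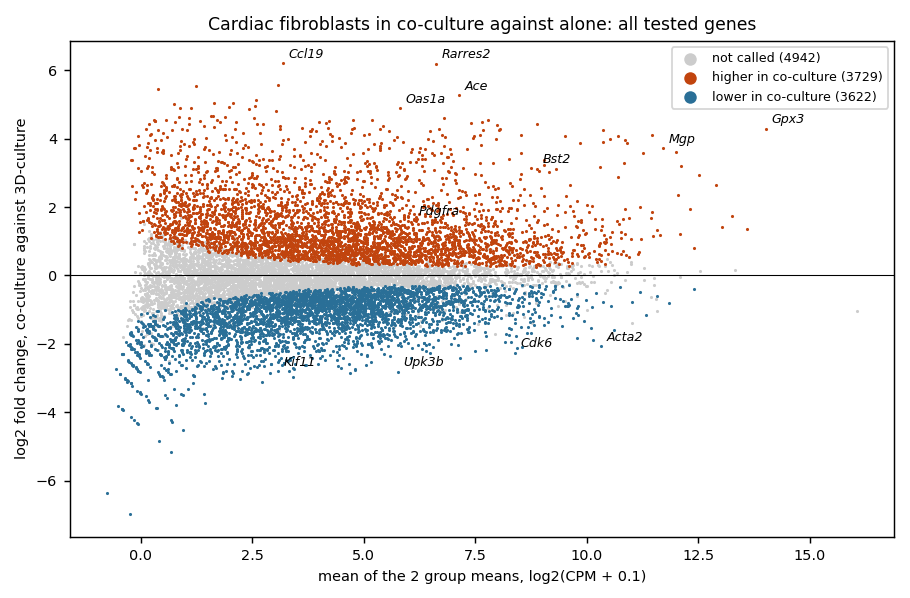
Log2 fold change of co-culture against alone for each of the 12293 tested genes, over the mean of the 2 group means in log2(CPM + 0.1). Orange points are the 3729 genes called higher in co-culture, blue points the 3622 called lower and grey points the genes not called. Ccl19 and Rarres2 lie at the top, and Kif11, a cell division gene, among the lower points at -2.8.

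**Figure D2:**
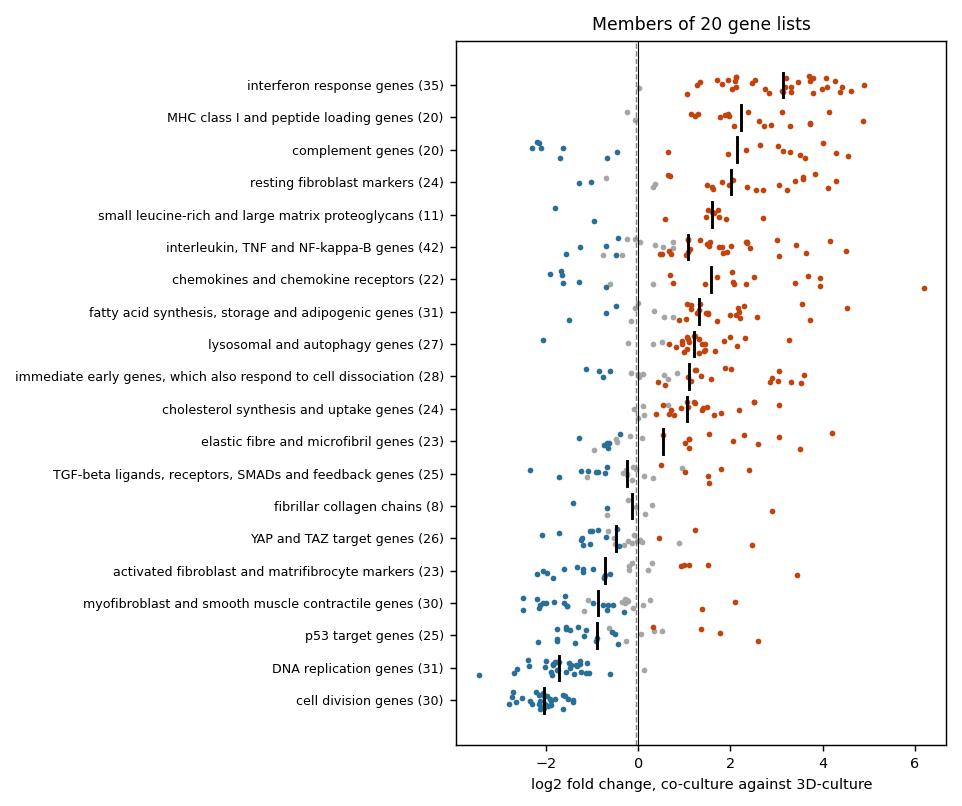
Log2 fold change of the tested members of 20 gene lists, 1 point per gene, with the number of tested members in brackets. Orange points were called higher in co-culture, blue points lower and grey points not called. Black bars are list medians and the dashed line is the median of all tested genes. Interferon and MHC class I genes lie at the top, and cell division and DNA replication genes at the bottom.

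The fibroblast label was checked against defining genes. Tcf21, a transcription factor of cardiac fibroblasts, was present in every library, with 232, 227 and 256 CPM in co-culture and 107, 33.4 and 114 CPM alone. Collagen I, measured by Col1a2, was at 1434, 1222 and 1374 CPM in co-culture and 1193, 1202 and 1273 CPM alone and did not pass the test. Pdgfra, the sort marker, was at 97.4, 103 and 114 CPM in co-culture and 32.4, 40.6 and 30.0 CPM alone. Only the co-culture cells were selected for Pdgfra, so its difference is not read as a finding. Ptprc, which encodes CD45, had 2, 1 and 6 counts in co-culture and 61, 31 and 58 counts alone, and Pecam1, which encodes CD31, had 0, 2 and 4 counts in co-culture and 16, 15 and 19 counts alone. These counts are not scaled for depth. Pecam1 was not called (log2 fold change -1.31, adjusted p = 0.0869), except as lower with total-count scaling (adjusted p = 0.0298). Both sort markers were thus near 0 in the sorted libraries and low in the unsorted ones. Of 14 genes that mark heart mesenchyme, 10 were tested, and 3 were higher and 4 lower. Hand2, a cardiac transcription factor, was at 71.7 ± 4.03 CPM in co-culture and 30.7 ± 2.32 CPM alone (mean ± SD, n = 3 per group) and rose. Tbx20 was at 65.7 ± 6.52 CPM in co-culture and 105 ± 4.37 CPM alone and fell, a direction that reversed with length and GC trends removed. Both were thus present in both groups. Of 26 genes that mark lung mesenchyme, 10 were tested, and 4 were higher and 3 lower. Whether any sorted cells came from the heart and lung endothelial preparation was not tested.

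Markers of other cell types moved with the groups in several lists. Summed over 21 macrophage markers, the level was 515 to 649 CPM in co-culture and 1147 to 1787 CPM alone, and of the 20 tested 17 were lower and 1 was higher in co-culture. The higher one was Cd14, whose call was lost with total-count scaling (adjusted p = 0.259). Lyz2, a lysozyme of macrophages, was at 403, 373 and 309 CPM in co-culture and 821, 579 and 1032 CPM alone. The macrophage sum in co-culture was lower than in every library of fibroblasts alone, yet not 0. Summed over 13 epicardial and mesothelial markers it was 43.5 to 49.2 CPM in co-culture and 187 to 213 CPM alone, with 9 of 10 tested lower. Upk3b, a mesothelial surface protein, was at 13.8, 15.9 and 11 CPM in co-culture and 95.2, 107 and 81.1 CPM alone. The 27 endothelial markers summed to 109 to 137 CPM in co-culture and 101 to 108 CPM alone, slightly higher in co-culture, a direction that reversed with total-count scaling. Of 13 tested, 4 were higher (30.8%) and 3 lower (23.1%), against 30.3% and 29.5% of all tested genes. The log2 fold change was positive for 6 of the 13 and negative for 7, with a median of -0.12. The higher ones were Ecscr, Plvap, Egfl7 and Clec14a. Ecscr, Plvap and Egfl7 lost their calls with length and GC trends removed. The call of Ecscr was lost with total-count scaling (adjusted p = 0.384) and without co-culture replicate 1 (adjusted p = 0.0639). The defining markers Cdh5, Kdr and Vwf stayed under 1 CPM in every library. Pericyte markers summed to 258 to 283 CPM in co-culture and 72.4 to 82.2 CPM alone, and 4 of 7 tested were higher and 2 lower. Steap4 (log2 fold change 4.37, SE 0.359, adjusted p = 1.55e-05) and Ndufa4l2 (log2 fold change 3.2, SE 0.168, adjusted p = 1.64e-06) were among the higher, while Rgs5, a defining pericyte marker, stayed under 1 CPM in every library. Adipocyte markers summed to 208 to 257 CPM in co-culture and 22.3 to 27.4 CPM alone, mostly Fabp4, at 192, 242 and 247 CPM in co-culture and 18.1, 21.8 and 18.3 CPM alone, and 3 of 5 tested were higher. Smooth muscle markers were higher in 2 and lower in 4 of 8 tested. Lymphocyte markers were lower in 2 of 2, cardiomyocyte markers in 1 of 5. Schwann cell markers were higher in 2 of 4, lymphatic in 1 of 1 and lung epithelial in 1 of 1. Lymphatic markers summed to 6.29 to 7.27 CPM in co-culture and 2.31 to 3.13 CPM alone. Lung epithelial markers summed to 2.44 to 6.06 CPM in co-culture and 0.796 to 1.24 CPM alone. Of the red blood cell list no gene was tested. In bulk RNA, fewer cells of a type and less RNA per cell cannot be told apart, and the part of these cells in the results below was not tested unless a value is given.

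**Figure D3:**
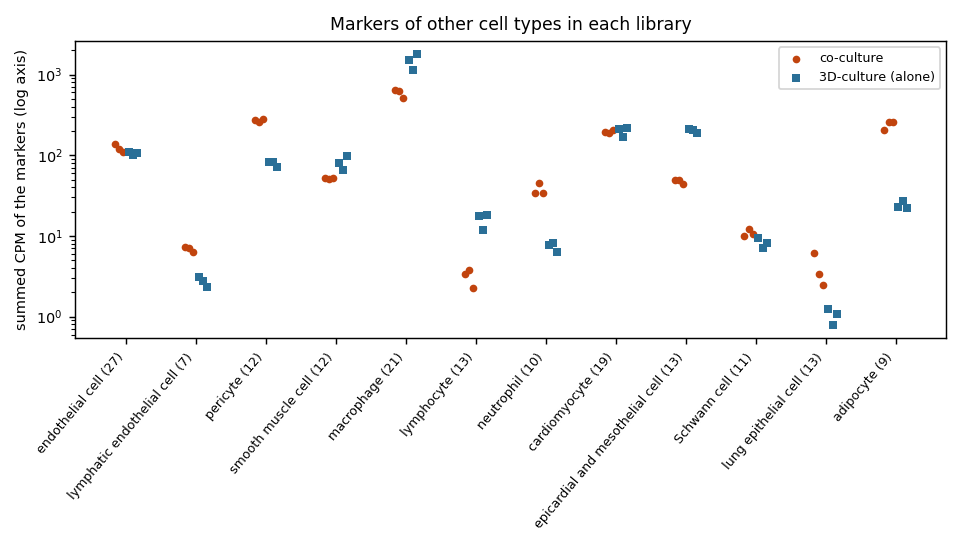
Summed level of marker genes of other cell types in each library, in CPM on a log axis, with the number of genes in brackets. Orange circles are the 3 co-culture libraries and blue squares the 3 libraries of fibroblasts alone. Macrophage, lymphocyte, mesothelial and smooth muscle sums lie lower in co-culture. Pericyte, adipocyte, neutrophil, lymphatic, lung epithelial and Schwann cell sums lie higher. Endothelial sums lie close together, from 101 to 137 CPM.

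Interferon response genes were higher in co-culture: 34 of 35 tested members rose and 0 fell, with a median log2 fold change of 3.13. They include the sensors and effectors by which cells restrict viruses. Oas1a, an enzyme that makes the activator of RNase L, was at 71, 149.8 and 103 CPM in co-culture and 3.48, 4.54 and 3.01 CPM alone (log2 fold change 4.89, SE 0.302, adjusted p = 3.31e-06). All 3 co-culture libraries lay far above those of fibroblasts alone. Bst2, or tetherin, which holds budding virus on the membrane, was at 667, 1005 and 873 CPM in co-culture and 96.4, 103 and 92.2 CPM alone (8.73-fold higher, log2 fold change 3.13, SE 0.164, adjusted p = 1.62e-06). Zbp1, a sensor of Z-form nucleic acid, was 13.3-fold higher, at 122, 165 and 138 CPM in co-culture and 10.1, 10.2 and 11.7 CPM alone. Rtp4 (log2 3.47), Xaf1 (log2 3.18), Oasl2 (log2 3.79) and the immunity-related GTPase Igtp (log2 3.2) rose as well. The tested member that was not called was Ifit2, at 10.9, 11.8 and 13.6 CPM in co-culture and 11.9, 12.5 and 11.7 CPM alone, where the libraries were interleaved.

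The order of the co-culture libraries was shared by most interferon genes. Co-culture replicate 2 had the highest level for 30 of the 35 tested members and co-culture replicate 1 the lowest for 31 of 35. Without replicate 2 of co-culture, 34 of 35 were still higher, with a median of 3.00, and without replicate 1, 34 of 35 with a median of 3.27. Oas1a, Oas1g, Tgtp2 and H2-Q6 belong to families of close copies, between which reads could be split in counting, so their single values are uncertain.

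**Figure D4:**
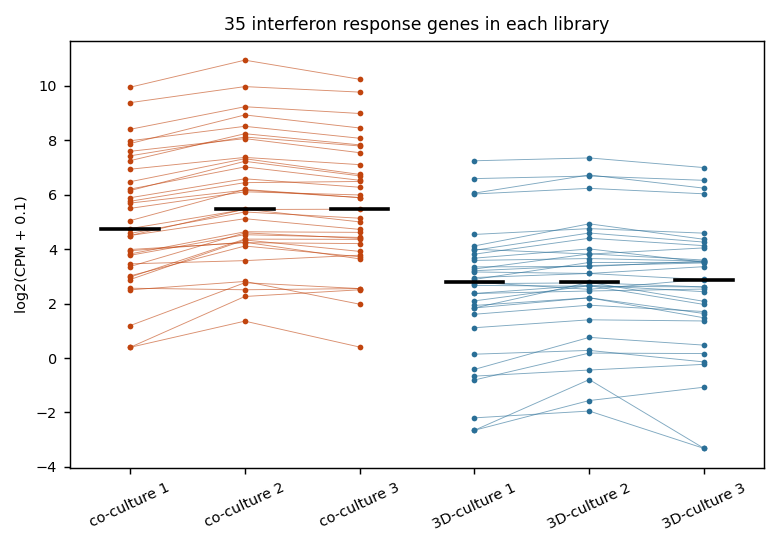
Level of the 35 tested interferon response genes in each library in log2(CPM + 0.1), 1 point per gene, with thin lines joining a gene's values within a group and black bars at the median of the library. Points in the co-culture libraries (orange) lie above those alone (blue) for 34 of 35 genes, and co-culture replicate 2 is the highest library for 30 of them.

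Genes that answer to interferon often carry the interferon-stimulated response element in their promoter. RefSeq promoter windows (GRCm38.p6, 250 bases before to 50 after each start site) were searched on both strands for its core letters, GAAA and GAAA with any 2 bases between. Of 24 list members that rose and have a window, 16 (66.7%) held it, against 3.99% of 27025 genes with a window and 3.44% of 32851 windows. Stretches before the start sites of Bst2, Igtp and Oas1a are shown because these rose and hold the letters, which are in capitals, all read on the gene's own strand. They lie at chr8:71537548-71537647 (minus strand), chr11:58199456-58199555 (plus strand) and chr5:120907526-120907625 (minus strand).
Bst2: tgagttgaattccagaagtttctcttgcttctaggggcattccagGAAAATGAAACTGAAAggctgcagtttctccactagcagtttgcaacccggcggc
Igtp: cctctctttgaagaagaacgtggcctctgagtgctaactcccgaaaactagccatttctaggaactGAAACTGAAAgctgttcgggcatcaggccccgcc
Oas1a: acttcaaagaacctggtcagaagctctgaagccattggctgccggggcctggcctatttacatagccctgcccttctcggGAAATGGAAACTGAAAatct
Bst2 and Oas1a each hold 2 overlapping copies and Igtp holds 1. A match is a description of these letters and does not show binding.

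Antigen presentation by MHC class I rose with the interferon genes. Of 20 tested members 18 were higher and 0 lower (median 2.23). The classical heavy chain H2-K1 was at 931, 1390.3 and 1120.3 CPM in co-culture and 122, 149 and 125 CPM alone (log2 fold change 3.12, SE 0.172, adjusted p = 1.84e-06). B2m, the light chain, was at 6424, 10128 and 7734 CPM in co-culture and 2316, 1754 and 2207 CPM alone (log2 fold change 1.95, SE 0.192, adjusted p = 4.27e-05). H2-D1 rose 7.33-fold and H2-T23 13.3-fold. The immunoproteasome subunits, which cut proteins into peptides for these molecules, rose too: Psmb8 (log2 3.29), Psmb9 (log2 3.72) and Psmb10 (log2 2.38). Calr and Pdia3, general chaperones of the loading complex, were not called (log2 -0.07 and -0.25). Calr was called lower with total-count scaling, and Pdia3 there and with upper-quartile factors, no filter, limma-voom or without 3D-culture replicate 2.

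Cell division genes were lower in co-culture without exception: 30 of 30 tested fell (median -2.05). The mitotic cyclin Ccnb1 was at 33.9, 33.1 and 32.5 CPM in co-culture and 135, 122 and 131 CPM alone (log2 fold change -1.96, SE 0.108, adjusted p = 1.84e-06). Cdc20, which starts anaphase, was at 35.6, 36.7 and 33.5 CPM in co-culture and 163, 137 and 155 CPM alone (log2 fold change -2.1, SE 0.118, adjusted p = 1.98e-06). Mki67, the proliferation marker, was 6.71-fold lower, at 2.91, 2.46 and 2.97 CPM in co-culture and 16.6, 16 and 23.6 CPM alone. The spindle motor Kif11 (log2 -2.8), the centromere motor Cenpe (log2 -2.65) and the spindle proteins Hmmr (log2 -2.73), Tpx2 (log2 -2.15) and Nusap1 (log2 -2.23) fell, as did the mitotic kinase Plk1 (log2 -2.04). Hmmr, Mki67, Kif11, Cenpe, Cdc25c (log2 -3.11), Knl1 (log2 -2.96) and Dlgap5 (log2 -2.7), all with roles in mitosis, were among the 15 genes with the largest falls of those with at least 10 CPM alone. No library of co-culture reached the level of any library alone for any of the 30, against 67% of all tested genes with groups that do not overlap.

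DNA replication genes fell as well, 30 of 31 tested (median -1.73). Rrm1, the large subunit of ribonucleotide reductase, was at 36.1, 32 and 31.4 CPM in co-culture and 145, 128 and 133 CPM alone (log2 fold change -2.03, SE 0.117, adjusted p = 2.27e-06). Of the helicase that opens origins, Mcm4 (log2 -1.87) and Mcm6 (log2 -1.75) fell, and so did the origin factor Gins2 (log2 -1.86). The S-phase cyclin Ccne2 (log2 -2.41) and DNA ligase Lig1 (log2 -1.73) fell too. E2f1 was not called, at 13.6, 19.4 and 18 CPM in co-culture and 12.6, 18.9 and 15.7 CPM alone, but was called lower with length and GC trends removed (log2 -0.55). Hells, a chromatin remodeller of dividing cells, fell 6.85-fold. Counts of both lists were 30 with length and GC trends removed and with total-count scaling.

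Regulators of the cycle did not move as 1 block: 8 of 19 were higher and 5 lower (median 0.21), and the median changed sign with total-count scaling and with length and GC trends removed (-0.15 and -0.17). The higher count was 5 without co-culture replicate 3. Cdkn1c, which encodes the cyclin-dependent kinase inhibitor p57, was at 539, 418 and 462 CPM in co-culture and 23.8, 38.6 and 27.2 CPM alone, 15.9-fold higher (log2 fold change 3.99, SE 0.205, adjusted p = 1.49e-06). Gas1 (log2 2.07), Cdkn2b (log2 1.27) and Btg2 (log2 1.36) also rose. Cdkn1a, the p53-induced inhibitor p21, went the other way, at 572, 574 and 526 CPM in co-culture and 1371, 1187 and 1137 CPM alone (log2 fold change -1.14, SE 0.114, adjusted p = 4.64e-05). Among cyclins of the G1 phase, Ccnd2 (log2 -1.89) and Ccnd1 (log2 -0.94) fell and Ccnd3 (log2 1.4) rose. Of 25 p53 target genes 16 fell and 4 rose (median -0.9), among them Mdm2 (log2 -1.77), whose protein degrades p53, and Ccng1 (log2 -1.57), while Ddit4 (log2 2.59) and Sesn1 (log2 1.78) rose.

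Many cell division promoters hold the letters TTTGAA, the core of the element known as CHR, and DNA replication promoters the E2F letters TTGGCGC. On both strands, TTTGAA was present in the window of 20 of 27 lowered cell division genes (74.1%), against 20.2% of all genes with a window. TTGGCGC was present for 10 of 24 lowered DNA replication genes (41.7%), against 2.85%. Shares of windows rather than genes were 17.9% and 2.45%. Of the other searches, the sterol response letters were in 1 of 14 raised cholesterol genes (7.14%, against 1.44% of genes). The CArG box was in 3 of 16 lowered contractile genes (18.8%) and 2 of 14 raised immediate early genes (14.3%), against 1.81%. The NF-kappa-B letters were in 0 of 10 raised chemokine genes and 4 of 22 raised cytokine genes (18.2%), against 4.94%. The stretches shown hold the letters in capitals, upstream of 4 genes that fell: Cdc20 at chr4:118437344-118437443 (minus), Kif11 at chr19:37376282-37376381 (plus), Mki67 at chr7:135716443-135716542 (minus) and Mcm6 at chr1:128359762-128359861 (minus).
Cdc20: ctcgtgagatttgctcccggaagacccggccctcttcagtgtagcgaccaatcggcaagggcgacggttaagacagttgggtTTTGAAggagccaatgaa
Kif11: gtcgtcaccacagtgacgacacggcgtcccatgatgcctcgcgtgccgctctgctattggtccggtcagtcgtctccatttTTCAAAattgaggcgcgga
Mki67: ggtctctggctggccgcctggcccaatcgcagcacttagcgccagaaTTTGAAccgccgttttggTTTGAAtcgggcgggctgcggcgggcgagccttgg
Mcm6: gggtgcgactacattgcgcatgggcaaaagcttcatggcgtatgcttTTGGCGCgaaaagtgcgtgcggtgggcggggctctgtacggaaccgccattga
In Cdc20 and Kif11 the letters start 18 and 19 bases before the start site, in Kif11 on the other strand, and Mki67 holds 2 copies. These letters do not show which factor binds there.

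Markers of resting fibroblasts were higher in co-culture. Of 24 tested, 19 rose and 2 fell (median 2.01), and without the sort gene Pdgfra the counts were 18 and 2 of 23. Leaving out that gene does not remove the sort, whose part in these markers cannot be told apart from that of the endothelial cells. Gpx3, a secreted glutathione peroxidase, was at 32825, 29453 and 32052 CPM in co-culture and 1326, 2043 and 1451 CPM alone (19.6-fold higher, log2 fold change 4.29, SE 0.204, adjusted p = 1.26e-06). Gsn, the actin-severing protein gelsolin, was at 4246, 4316 and 5118 CPM in co-culture and 326, 467 and 358 CPM alone (log2 fold change 3.57, SE 0.173, adjusted p = 1.32e-06). Entpd2, an enzyme that hydrolyses extracellular ATP, rose 10.5-fold and the matrix glycoprotein Fbln1 8.29-fold. Tcf21, given above, rose (log2 fold change 1.49, SE 0.373, adjusted p = 0.00762), with its lowest value in 3D-culture replicate 2. The fallen members were Cd34, at 17, 22.1 and 20.3 CPM in co-culture and 42.6, 39.5 and 39.5 CPM alone, and Mfap5 (log2 -1.28), both also known as markers of adventitial fibroblasts.

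Of small leucine-rich and large proteoglycans of the matrix, 9 of 11 tested were higher and 2 lower (median 1.6). Lumican (Lum) was at 531, 570.3 and 517 CPM in co-culture and 77.3, 97.6 and 73.7 CPM alone (log2 fold change 2.7, SE 0.137, adjusted p = 1.40e-06). Decorin (Dcn) was at 2288, 2694 and 2422 CPM in co-culture and 910.3, 751 and 784 CPM alone (log2 fold change 1.6, SE 0.125, adjusted p = 1.18e-05). Biglycan (Bgn) rose too, at 2322, 2400.4 and 2772 CPM in co-culture and 949.7, 815 and 870.0 CPM alone. Osteoglycin (Ogn, log2 1.46) and asporin (Aspn, log2 1.64) rose too. Fibromodulin (Fmod, log2 -1.81) and versican (Vcan, log2 -0.97) fell. Mgp, an inhibitor of calcification, was 13.2-fold higher, at 5089, 6615 and 7089 CPM in co-culture and 408, 562 and 452 CPM alone.

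**Figure D5:**
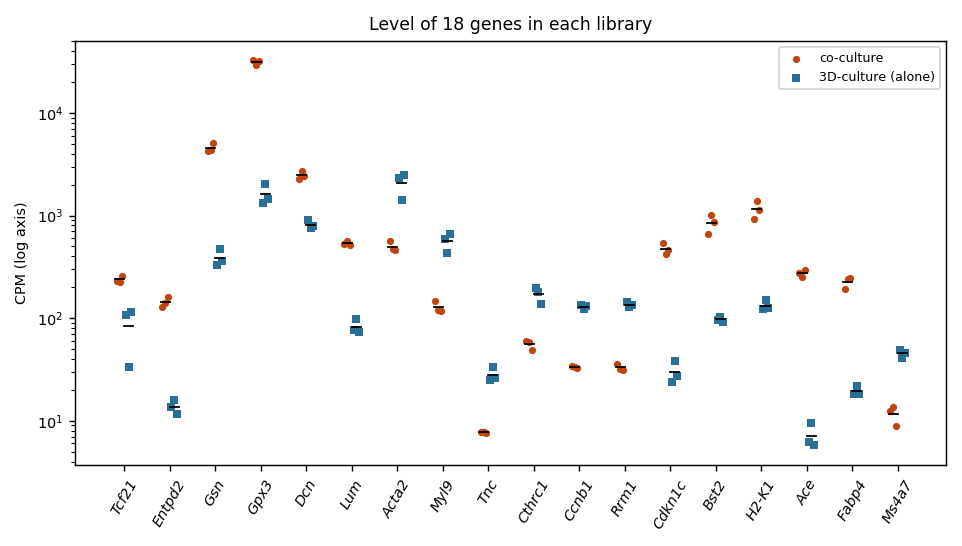
Level of 18 genes in each library in CPM on a log axis. Orange circles are the 3 co-culture libraries, blue squares the 3 libraries alone, and black bars the group means. Fibroblast markers, Cdkn1c, Bst2, H2-K1, Ace and Fabp4 lie higher in co-culture, and contractile, activation, cell cycle and macrophage genes lie lower.

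Genes of the contractile apparatus were lower: of 30 tested, 18 fell and 2 rose (median -0.89). Acta2, the smooth muscle actin that defines myofibroblasts, was at 560.5, 468 and 462 CPM in co-culture and 2330.2, 1433 and 2465 CPM alone (4.18-fold lower, log2 fold change -2.06, SE 0.206, adjusted p = 4.61e-05). Myl9, the regulatory myosin light chain, was at 147, 120.1 and 118 CPM in co-culture and 596, 428 and 657 CPM alone (log2 fold change -2.13, SE 0.177, adjusted p = 1.69e-05). Cald1 (caldesmon, log2 -1.83), Cnn1 (calponin, log2 -2.51), Lmod1 (log2 -2.16), Myh10 (log2 -2.21) and Tpm4 (log2 -1.54) fell too. Desmin (Des, log2 2.09) and myosin light chain kinase (Mylk, log2 1.39) rose. Target genes of YAP and TAZ, cofactors that enter the nucleus when cells are spread and under tension, were lower in 12 of 26, higher in 3 and not called in 11 (median -0.49). Ankrd1 was at 162, 135 and 134 CPM in co-culture and 624, 487 and 720.5 CPM alone (log2 fold change -2.09, SE 0.162, adjusted p = 1.16e-05), while Ccn1, another target, was not called at 883, 759 and 811 CPM in co-culture and 942, 952 and 971 CPM alone. Ccn1 was called lower with upper-quartile factors, with total-count scaling, without 3D-culture replicate 2 and with length and GC trends removed (log2 -0.78 in the last).

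Markers of activated fibroblasts fell in 13 of 23 tested members and rose in 5 (median -0.73). Periostin (Postn) was at 58.4, 56.1 and 54.7 CPM in co-culture and 158, 131 and 138 CPM alone (log2 fold change -1.34, SE 0.115, adjusted p = 2.07e-05). Tenascin C (Tnc, log2 -1.86), Cthrc1 (log2 -1.63), fibronectin (Fn1, log2 -0.99) and the collagen crosslinking enzyme Lox (log2 -1.2) fell as well. Ddah1, which degrades an inhibitor of nitric oxide synthase, was 4.6-fold lower, at 69.6, 62.4 and 60.2 CPM in co-culture and 294, 286 and 303 CPM alone. The members that rose were Sfrp2 (log2 3.45), Angptl4 (log2 1.51), Mfap4 (log2 1.11), Ccn5 (log2 0.93) and Fap (log2 1.00). Ccn4, a matricellular protein outside that list, fell (log2 -2.52).

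Fap encodes the membrane protease that the wider series is about. It was low in all 6 libraries, with 14, 16 and 15 counts in co-culture and 32, 19 and 25 counts alone, or 3.39, 3.58 and 2.62 CPM in co-culture and 1.89, 1.51 and 1.34 CPM alone, and rose in co-culture (log2 fold change 1.00, SE 0.288, adjusted p = 0.0152). The call was lost with total-count scaling (adjusted p = 0.104), without co-culture replicate 2 (adjusted p = 0.0599) and without 3D-culture replicate 3 (adjusted p = 0.0591). Its relative Dpp4 fell, with 10, 9 and 8 counts in co-culture and 165, 77 and 116 counts alone (log2 fold change -1.95, SE 0.322, adjusted p = 8.38e-04). Both rest on few counts in co-culture. Of the natriuretic peptide system, Nppa had no count in any library, which allows up to 0.524 to 0.727 CPM in the co-culture libraries and 0.161 to 0.239 CPM alone (3 counts of the library, counting error only). Nppb had 0, 0 and 0 counts in co-culture and 4, 1 and 5 counts alone. The receptor Npr3 was at 10.9, 13.2 and 11.9 CPM in co-culture and 15.4, 16 and 14.2 CPM alone and was not called; it was called lower with total-count scaling (log2 -0.68) and higher with length and GC trends removed (log2 0.45).

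Fibrillar collagens as a list showed no shared direction (1 of 8 higher, 2 lower, median -0.14, of opposite sign without 3D-culture replicate 2 at 0.04, with 2 higher and 2 lower). Col3a1 was at 631, 649.7 and 754 CPM in co-culture and 699, 756 and 658 CPM alone and not called (log2 fold change -0.05, SE 0.115, adjusted p = 0.702). Col1a1 was at 2609, 1985 and 2288 CPM in co-culture and 1516, 7708 and 1856 CPM alone, not called, with 3D-culture replicate 2 far above the rest. Without that library it was higher in co-culture (log2 0.42, adjusted p = 0.00339). Col5a2 fell (log2 -0.69) and the minor chain Col5a3 rose (log2 2.9). Of 10 tested non-fibrillar interstitial collagen chains 5 were higher and 1 lower (median 0.66, 3 lower with total-count scaling). Collagen VI chains, which form a network of beaded filaments around cells, rose: Col6a1 (log2 0.98), Col6a2 (log2 1.2) and Col6a3 (log2 2.56). Of 19 tested basement membrane genes 4 were higher and 7 lower (median -0.38). The lower count was 11 with total-count scaling and 3 without co-culture replicate 2. In this list the collagen IV chains Col4a1 (480.2, 392 and 439.7 CPM in co-culture and 209.8, 194 and 196 CPM alone, log2 fold change 1.13, SE 0.112, adjusted p = 4.53e-05) and Col4a2 (log2 0.43) rose, while the laminin chain Lamc1 (log2 -0.6) fell. The call of Col4a2 was lost under several alternatives, total-count scaling and length and GC trends removed among them. Among elastic fibre genes 12 of 23 rose and 6 fell (10 fell with total-count scaling), led by Mfap2, a microfibril protein, at 149, 171 and 193 CPM in co-culture and 7.67, 11.3 and 8.75 CPM alone (log2 fold change 4.22, SE 0.183, adjusted p = 1.01e-06), and Emilin1 (log2 2.6). Elastin itself (Eln) was not called, at 38.3, 35.8 and 37.4 CPM in co-culture and 32.9, 40.0 and 33.3 CPM alone.

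Of 13 tested matrix proteases 8 were higher and 3 lower (median 1.07). With total-count scaling 6 were higher and 5 lower, and with length and GC trends removed 6 and 3. Mmp2, gelatinase A, was at 755, 873 and 984 CPM in co-culture and 101, 115 and 96.1 CPM alone (8.37-fold higher, log2 fold change 3.07, SE 0.14, adjusted p = 1.07e-06). Mmp3, stromelysin 1, was at 1560.2, 1923 and 1876 CPM in co-culture and 427, 512 and 367 CPM alone (log2 fold change 2.04, SE 0.153, adjusted p = 9.62e-06). Mmp23 (log2 2.37) and Mmp11 (log2 2.44) rose, while Mmp12, also a macrophage protease, fell (log2 -2.05). Their inhibitors were divided: Timp4 rose, at 38.8, 37.6 and 34 CPM in co-culture and 2.12, 2.47 and 1.99 CPM alone (log2 4.07), Timp3 fell (log2 -1.56), and Timp1 was not called (898, 898 and 954 CPM in co-culture and 822, 564 and 847 CPM alone) except with length and GC trends removed, where it was lower (log2 -0.68). The cysteine protease inhibitor cystatin C (Cst3) was 6.28-fold higher, at 13879.9, 13613 and 12303 CPM in co-culture and 1993, 2258 and 2089 CPM alone. The urokinase receptor Plaur (log2 -1.65) fell.

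Complement genes fell into 2 sets with no overlap of the groups in any of the 20 tested, against 67% of all tested genes: 12 were higher and 8 lower (median 2.15). The higher ones include components of the early classical pathway. C1s1, a protease of C1, was at 108, 129.9 and 129.6 CPM in co-culture and 9.14, 12.8 and 8.05 CPM alone (log2 fold change 3.62, SE 0.192, adjusted p = 1.71e-06). C4b was at 45.1, 53.7 and 51.9 CPM in co-culture and 2.06, 3.34 and 2.42 CPM alone (log2 fold change 4.28, SE 0.194, adjusted p = 1.07e-06). C2 was 23.5-fold higher. The C1 inhibitor Serping1 was at 3171, 3532 and 3262 CPM in co-culture and 323, 375 and 313 CPM alone (log2 fold change 3.3, SE 0.127, adjusted p = 8.88e-07). Lower were C1qa (log2 -2.31), C1qb (log2 -1.65), C1qc (log2 -2.12) and the receptors C3ar1 (log2 -2.15) and C5ar1 (log2 -2.19), which macrophages express. C1qa, C1qb and C1qc are also in the macrophage list, whose sum was lower in co-culture.

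Chemokines changed in both directions, 14 of 22 higher and 6 lower (median 1.58). The lower count was 3 with libraries thinned to equal totals. Ccl19, a ligand that draws lymphocytes and dendritic cells, had the largest rise by the rule for named genes, at 18.4, 19.4 and 15.4 CPM in co-culture and 0.059, 0.239 and 0.376 CPM alone (log2 fold change 6.21, SE 0.357, adjusted p = 2.25e-06). Cxcl12, which retains progenitor cells, was at 594, 609 and 667 CPM in co-culture and 150.5, 133 and 168 CPM alone (log2 fold change 2.05, SE 0.123, adjusted p = 2.84e-06). Cxcl1 (log2 3.41), Cx3cl1 (log2 3.68), Cxcl16 (log2 2.5) and Cxcl14 (log2 2.33) rose. Ccl3 (log2 -1.92) and Ccl12 (log2 -1.66), both typical of macrophages, fell. Rarres2, which encodes chemerin, was 73.1-fold higher, at 211, 212 and 161 CPM in co-culture and 1.71, 3.82 and 2.58 CPM alone. Lrg1, an acute phase glycoprotein, was 23.4-fold higher, at 483, 369 and 427 CPM in co-culture and 12.9, 26 and 15.9 CPM alone. Among interleukin, TNF and NF-kappa-B genes 28 of 42 rose and 5 fell (median 1.09). The lower count was 3 without co-culture replicate 1 or 3 or without 3D-culture replicate 1 or 3. The risen genes include the inhibitors Nfkbia (246, 253 and 283 CPM in co-culture and 51.9, 42.8 and 57.8 CPM alone, log2 fold change 2.36, SE 0.139, adjusted p = 2.55e-06), Tnip1 (log2 2.33) and Bcl3 (log2 2.43), the adhesion molecule Icam1 (log2 3.42), and Socs3 (log2 3.05), which brakes STAT3 signalling. Csf1, the macrophage growth factor, fell, at 509, 514 and 519.8 CPM in co-culture and 784, 843 and 879.9 CPM alone (log2 fold change -0.7, SE 0.0996, adjusted p = 3.52e-04).

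Most tested angiotensin genes rose. Ace, the enzyme that makes angiotensin II, was at 278, 249 and 297 CPM in co-culture and 6.19, 9.47 and 5.75 CPM alone (38.8-fold higher, log2 fold change 5.28, SE 0.212, adjusted p = 8.88e-07). Angiotensinogen (Agt), the precursor of the peptide, was at 103, 93 and 108 CPM in co-culture and 5.72, 7.32 and 5.48 CPM alone (log2 fold change 4.04, SE 0.155, adjusted p = 8.88e-07). The receptor Agtr1a rose (log2 1.83), and of 6 tested members 4 rose and 2 fell. In the list of vessel growth factors 16 of 30 rose and 5 fell (8 fell with total-count scaling). Angpt1, which stabilises vessels through the Tie2 receptor, rose from low counts alone (5.82, 3.58 and 6.98 CPM in co-culture and 0.354, 0.716 and 0.376 CPM alone, log2 fold change 3.54, SE 0.391, adjusted p = 8.19e-05). Midkine (Mdk), a heparin-binding growth factor, was at 223, 192 and 174 CPM in co-culture and 13.8, 21.4 and 14 CPM alone (log2 fold change 3.58, SE 0.202, adjusted p = 1.97e-06). Ramp2, a subunit of the adrenomedullin receptor, was at 91.9, 98.6 and 102 CPM in co-culture and 12, 13.8 and 12.8 CPM alone (log2 fold change 2.93, SE 0.12, adjusted p = 8.88e-07). Vegfa was low and fell (1.94, 2.01 and 1.4 CPM in co-culture and 4.72, 3.5 and 5.48 CPM alone). Insulin-like growth factor binding proteins Igfbp3 (log2 2.47), Igfbp4 (log2 2.36), Igfbp6 (log2 2.06) and Igfbp7 (log2 1.68) rose and Igfbp2 (log2 -2.15) fell, while Igf1 was not called (80.7, 91 and 100.1 CPM in co-culture and 78, 87.4 and 71.9 CPM alone). With length and GC trends removed Igf1 was called higher (log2 1.05, adjusted p = 3.01e-04). The receptor Igf1r fell (log2 -1.32). Of 19 tested IGF genes and IGF binding proteins 10 were higher and 6 lower (median 0.65).

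Genes of the TGF-beta family were split, 6 of 25 higher and 8 lower (13 lower with total-count scaling, 5 without co-culture replicate 2). The ligand Tgfb2 was at 28.6, 29.7 and 21 CPM in co-culture and 90.0, 75.3 and 94.1 CPM alone (log2 fold change -1.72, SE 0.163, adjusted p = 3.50e-05), and the receptors Tgfbr2 (log2 1.79) and Tgfbr3 (log2 2.4) rose. Of 24 tested BMP, activin and GDF genes 5 were higher and 9 lower (median -0.21). The lower count was 13 with total-count scaling and 6 without co-culture replicate 3. Inhba, which encodes activin A, was 5.35-fold lower, at 51.6, 49 and 34.4 CPM in co-culture and 257, 224 and 238 CPM alone. Bmp4 (log2 -1.77) and Gdf6 (log2 -1.4) fell, and Id3, a target of BMP signalling, rose, at 2413, 2867 and 2868 CPM in co-culture and 976, 621 and 1014 CPM alone (log2 fold change 1.64, SE 0.191, adjusted p = 1.08e-04). Of the PDGF receptors, Pdgfrb rose (log2 0.87). Hbegf (log2 -2.03) and the epiregulin gene Ereg (log2 -1.22), both ligands of the EGF receptor, fell. In the list of FGF, HGF and EGF family genes 7 of 23 tested were higher and 5 lower (median 0.20). With total-count scaling 2 were higher and 6 lower.

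Lipid genes were higher in co-culture. Of 24 tested genes of cholesterol synthesis and uptake 19 rose and 0 fell (median 1.06). Fdps, which makes farnesyl diphosphate, was at 48, 42.5 and 45.6 CPM in co-culture and 6.72, 9.71 and 7.52 CPM alone (log2 fold change 2.51, SE 0.163, adjusted p = 4.18e-06), and Mvd (log2 2.5), Dhcr7 (log2 2.18), Fdft1 (log2 1.8) and Tm7sf2 (log2 3.05) rose. Among fatty acid and adipogenic genes 22 of 31 rose and 3 fell (median 1.31). Pparg, the adipogenic nuclear receptor, was at 8.97, 12.7 and 12.9 CPM in co-culture and 2.3, 3.1 and 1.77 CPM alone (log2 fold change 2.3, SE 0.262, adjusted p = 9.89e-05). Its target Fabp4 was 11.7-fold higher, at 192, 242 and 247 CPM in co-culture and 18.1, 21.8 and 18.3 CPM alone. Lipoprotein lipase (Lpl) was at 404, 431 and 481 CPM in co-culture and 99.4, 94.1 and 98 CPM alone (log2 fold change 2.17, SE 0.111, adjusted p = 1.45e-06), and Scd1 (log2 2.21), Acss2 (log2 2.58) and Plin2 (log2 1.72) rose. Adipoq was at 11.2, 9.39 and 6.29 CPM in co-culture and 0.472, 1.03 and 0.537 CPM alone, and Lep, a hormone of mature adipocytes, had no count in any library.

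Lysosomal genes rose in 23 of 27 tested and fell in 1 (median 1.21). Hexa, a subunit of beta-hexosaminidase, was at 1157, 1289 and 1265 CPM in co-culture and 257, 244 and 243 CPM alone (log2 fold change 2.32, SE 0.105, adjusted p = 1.07e-06). Npc2, a cholesterol carrier of the lysosome, was at 1495, 1827 and 1690.1 CPM in co-culture and 493, 439.9 and 459 CPM alone (log2 fold change 1.85, SE 0.119, adjusted p = 3.97e-06). Gpnmb (log2 2.14) rose. The one lower member was Ctss (25.5, 22.1 and 18 CPM in co-culture and 102, 69.6 and 103 CPM alone), a cathepsin of macrophages. Among genes with the most counts, ferritin heavy chain (Fth1) was at 14504, 15386 and 15128 CPM in co-culture and 4780.2, 3696 and 4944 CPM alone (log2 fold change 1.75, SE 0.147, adjusted p = 1.82e-05). Ferritin light chain (Ftl1) rose (log2 1.37), a call lost with length and GC trends removed. Metallothionein Mt1 was 9.13-fold higher, at 7362, 8250.2 and 8551 CPM in co-culture and 862, 959.8 and 825 CPM alone. Among antioxidant genes 17 of 34 rose and 7 fell (12 fell without 3D-culture replicate 2). The fallen ones include the NRF2 targets Nqo1 (log2 -1.43), Txnrd1 (log2 -1.21), Srxn1 (log2 -0.96) and Gclm (log2 -0.75). Respiratory chain genes had 27 of 45 higher and 2 lower, but 9 higher and 15 lower with length and GC trends removed, 5 and 5 with total-count scaling, and 27 and 6 without 3D-culture replicate 2, so no direction is given for them. Ribosomal protein genes likewise went from 11 higher and 4 lower to 7 and 17 with length and GC trends removed, and to 14 and 12 without 3D-culture replicate 2.

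Immediate early genes, which many stimuli and also tissue dissociation switch on within minutes, rose in 17 of 28 and fell in 4 (median 1.11). Fos was at 138, 115 and 138 CPM in co-culture and 10.8, 15.3 and 13.2 CPM alone (log2 fold change 3.32, SE 0.161, adjusted p = 1.32e-06). Junb was at 1008, 926 and 1089 CPM in co-culture and 113, 134 and 125 CPM alone (log2 fold change 3.02, SE 0.123, adjusted p = 8.88e-07). Both are parts of the AP-1 factor. Nr4a1, an orphan nuclear receptor, was at 152, 115 and 152 CPM in co-culture and 7.55, 16.2 and 11.1 CPM alone (log2 fold change 3.6, SE 0.268, adjusted p = 9.34e-06). Egr1 (log2 2.89) and Zfp36 (log2 2.85) rose, and Klf4 (log2 -0.86) and Klf6 (log2 -1.14) fell. Only the co-culture libraries went through cell sorting, and the part of the sort in these genes cannot be told apart from that of the endothelial cells. Of retinoid, steroid and glucocorticoid genes 13 of 22 rose and 6 fell (median 0.65). Tsc22d3, a leucine zipper protein induced by glucocorticoids, was at 213, 241 and 236 CPM in co-culture and 29.4, 38.5 and 32.3 CPM alone (log2 fold change 2.78, SE 0.135, adjusted p = 1.32e-06). Sgk1, a kinase, was at 161, 187 and 223 CPM in co-culture and 26.8, 29.4 and 32.5 CPM alone (log2 fold change 2.69, SE 0.151, adjusted p = 1.97e-06). Fkbp5 (log2 2.01), Zbtb16 (log2 4.62) and Per1 (log2 2.1) were higher. The receptor gene Nr3c1 was lower, at 18.2, 16.1 and 15 CPM in co-culture and 45.9, 43.2 and 56.6 CPM alone (log2 fold change -1.57, SE 0.152, adjusted p = 3.95e-05).

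Chaperones were mostly lower or not called. Of unfolded protein response genes 11 of 23 fell and 2 rose (median -0.32, 5 rose without 3D-culture replicate 2). Hspa5, the main chaperone of the endoplasmic reticulum, was at 612, 617 and 647 CPM in co-culture and 1209.5, 1163 and 1127 CPM alone (log2 fold change -0.9, SE 0.0986, adjusted p = 7.79e-05), and Hsp90b1 was 2.2-fold lower. Among cytosolic and mitochondrial heat shock genes 9 of 18 fell and 3 rose, the latter 0 with length and GC trends removed or total-count scaling. Hsp90aa1 (log2 -1.72) and Hspd1 (log2 -1.49) fell. Amino acid synthesis genes of the integrated stress response, Asns (log2 -0.75), Psat1 (log2 -1.17) and Mthfd2 (log2 -1.33), fell within a list of 31 with 12 lower and 6 higher, while the glutamine carrier Slc1a5 rose (log2 1.98). Of hypoxia genes 14 of 27 fell and 7 rose, and Ero1l (log2 -1.35) and P4ha1 (log2 -0.9), a collagen prolyl hydroxylase, were among the lower.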

How the data were processed

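Polyadenylated RNA was made into libraries by a modified Smart-seq2 method that adds molecular barcodes, read as pairs of 150 bp, per the labels' protocols. The submitters' processing notes name STAR, HTSeq and the mm10 build. The sources used here give no versions and no strand setting. The deposited values are whole counts per gene from the authors, and the file names carry a mark of duplicate removal whose step is not described. A series-wide table with 6 columns of per-sample values that could not be mapped was not used. Counts were tested with edgeR 4.0.16 in R 4.3.3 (filterByExpr, TMM scaling, quasi-likelihood F test, Benjamini-Hochberg adjusted p under 0.05), the 6 libraries alone entering the fit. CPM are counts in 1000000 of the TMM-scaled library size, computed from the deposited counts.

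Of 53801 identifiers 53706 had a symbol. Genes named are those of the study's own list, the 15 most changed in each direction with at least 10 CPM, up to 6 called in each direction and 2 not called of each list (all members of lists of up to 14), the 10 with most counts in each group, and cell type markers that were called or at 0. Other genes were named after their values were seen only as defining markers (Cdh5, Kdr, Vwf, Rgs5). The members and lists were chosen with earlier results of these data known. On simulated counts the test recovered 0%, 50%, 94% and 100% of genes changed 1.5-, 2-, 4- and 8-fold (50 each), with 12 false calls among 11767 unchanged genes. The simulation changed a far smaller share of genes than the 59.8% called here. It also held no trend with gene length and no library set apart from its group. Its recovery and false calls therefore need not carry over to these data. Promoter sequences are from RefSeq (GRCm38.p6).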

Additional observations from a re-analysis of the deposited data

How the results depend on the processing

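Depth limits low genes most, since co-culture libraries held fewer counts. The sort, present only in co-culture, and the endothelial cells cannot be told apart by any of these settings. The 7351 called genes became 4215 (2274 higher, 1941 lower) when a change of at least 2-fold was required. They numbered 7369 with DESeq2's size factors, 7407 with upper-quartile factors, 7668 with total-count scaling, 8303 with no filter, 7368 with a filter of 1 CPM in 3 libraries, 6421 with thinned libraries, 7267 without mitochondrially encoded and the 50 most abundant genes, 6963 with DESeq2, 7064 with limma-voom and 6054 with length and GC trends removed. Leaving out 1 library at a time gave 6405 to 7808 calls, 3306 to 3911 higher and 3009 to 3897 lower. With the replicate number as a block 6862 genes were called, but the numbers share no stated source and the deviations of same-numbered libraries correlated at -0.18, -0.09 and 0.06, so no pairing was assumed. With total-count scaling 57 of the 7351 genes had the opposite sign. The log2 ratio of endothelial marker sums was -0.13 with total-count scaling. For the summed counts of cardiomyocyte markers, log2 ratio co-culture to 3D-culture, values ranged from -0.13 to 0.0513 with 1 library left out at a time. With total-count scaling the log2 fold changes that reversed were Col1a2 -0.21, E2f1 -0.20, Eln -0.26, Ifit2 -0.33, Igf1 -0.14 and Timp1 -0.069. With length and GC trends removed the log2 fold changes that reversed were Col3a1 0.16, E2f1 -0.55, Eln -0.17, Npr3 0.45, Tbx20 0.30, Timp1 -0.68 and Vcan 0.083. With no filter on low counts the log2 fold changes that reversed were Eln -0.027 and Ifit2 -0.081. With upper-quartile factors the log2 fold changes that reversed were Ifit2 -0.044. With libraries thinned to the smallest total the log2 fold changes that reversed were Ifit2 -0.038. With 1 library left out at a time, log2 fold changes that crossed 0 were Actb from -1.44 to 0.029, Col1a1 from -1.08 to 0.42, E2f1 from -0.034 to 0.26 and Ifit2 from -0.083 to 0.086.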

Other observations

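Notch pathway genes were higher in co-culture in 8 of 16 tested members and lower in 1 (4 lower with total-count scaling). The log2 fold changes in brackets are of co-culture over alone. The receptor Notch4 (log2 2.21) and the receptor modifiers Lfng (log2 2.89) and Rfng (log2 1.06) rose, and the call of Rfng was lost with length and GC trends removed. The ligand Jag1 was at 155, 97.9 and 91.7 CPM in co-culture and 101, 859 and 166 CPM alone and was not called, but was called lower with total-count scaling (log2 -1.93) and without 3D-culture replicate 1 or 3. Its high value was in 3D-culture replicate 2. Of 26 tested Wnt genes 8 were higher (30.8%) and 6 lower (23.1%), with a median log2 fold change of 0.002. With total-count scaling 6 were higher and 8 lower. In this list the secreted Dkk3 was 17.4-fold higher, at 170.4, 216 and 229.6 CPM in co-culture and 12.3, 11.9 and 11.2 CPM alone (log2 fold change 4.12, SE 0.151, adjusted p = 8.88e-07). Junction genes fell in 11 of 20 and rose in 2 (7 fell with length and GC trends removed). The connexin Gja1 was at 15.5, 18.1 and 15.4 CPM in co-culture and 38.2, 53.3 and 40.1 CPM alone (log2 fold change -1.42, SE 0.167, adjusted p = 1.13e-04), and Cldn11, a claudin, at 41.5, 30.4 and 35.6 CPM in co-culture and 1.42, 3.5 and 1.4 CPM alone (log2 fold change 4.14, SE 0.329, adjusted p = 1.30e-05).

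Prostaglandin and eicosanoid genes were divided, 5 of 14 tested higher and 4 lower (median -0.015). Ptgds, a prostaglandin D synthase, rose (5.58, 10.1 and 8.73 CPM in co-culture and 0.59, 0.478 and 0.537 CPM alone), while Hpgds, the other prostaglandin D synthase and a gene of haematopoietic cells, fell (0.97, 1.34 and 1.22 CPM in co-culture and 8.55, 5.89 and 6.93 CPM alone). Transcription factors of fibroblasts changed in both directions, 14 of 42 higher and 11 lower: Foxs1 (log2 2.29) rose and Tead1 (log2 -1.06) fell, and the call of Tead1 was lost with length and GC trends removed. With total-count scaling 9 of this list were higher and 16 lower. Meg3, an imprinted noncoding RNA, was 7.17-fold lower, at 7.03, 6.48 and 5.41 CPM in co-culture and 46.7, 39.7 and 48.4 CPM alone. The mitochondrial glutamine tRNA gene mt-Tq was at 11474, 10019 and 9604 CPM in co-culture and 999, 2088 and 989.8 CPM alone. Polyadenylated RNA was sequenced and the sources used here do not give the strand setting of the counting, so reads of overlapping genes cannot be told apart.

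Neutrophil genes Camp (24.2, 27.9 and 19.6 CPM in co-culture and 1.53, 1.91 and 1.4 CPM alone) and Mmp8 (log2 1.07) were higher in co-culture, while the defining S100a9, Ly6g and Retnlg had no count in any library. Fmo2 (log2 4.61), a flavin monooxygenase, Hpca (log2 4.94) and Serpina3f (log2 4.56) were among the 15 largest rises of genes with at least 10 CPM in co-culture.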
